A study of Macaca mulatta with 16 samples.

Results

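Chromatin accessibility of naive CD8+ T cells was compared before and after 2-hydroxypropyl-beta-cyclodextrin in healthy rhesus macaques. The comparison used the 4 of 16 ATAC-seq libraries whose labels name naive CD8+ T cells of peripheral blood. They came from animal 1 before and after, and animal 2 before and after, paired by the animal names in the titles. The before samples had no treatment. The after samples came from the same animals given subcutaneous injections of a 15% (w/w) solution (Kleptose HBP, parenteral grade) at 1 ml/kg each day, for up to 120 days. The sources used here do not give the exact day, the animals' ages or the sorting gates. No animal without treatment was sampled at both times, so treatment and elapsed time cannot be told apart. The other 12 libraries, from naive CD4+, memory CD4+ and memory CD8+ T cells of the same animals and times, served only for comparison. Each library holds a sorted pool, so a change in which cells were sorted and a change within the cells cannot be told apart. P-values measure the spread between these libraries of 2 animals.

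Naive CD8+ T cells are cytotoxic precursors that have left the thymus and have not yet met their antigen. They keep the loci of effector molecules such as granzymes and interferon gamma largely closed, and open them as they divide and become effector or memory cells. 2-hydroxypropyl-beta-cyclodextrin is a ring of sugars with a hydrophobic cavity that takes up cholesterol. Membrane cholesterol bears on how T cell receptors cluster, and sterol levels are read by the SREBP and LXR transcription factors, so open chromatin is one place where a response could be looked for. ATAC-seq uses a transposase to cut and tag DNA that is not wrapped in nucleosomes, and a peak marks a stretch cut more often than its surroundings. A peak that appears is often a promoter or enhancer that has been engaged, and a peak that widens often reflects a longer nucleosome-depleted stretch.

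Each library was made from 10000 sorted cells and deposited as its own peak list. The lists of the naive CD8+ libraries held 36307 peaks before and 37966 after in animal 1, and 41396 before and 41150 after in animal 2. The number rose by 1659 in animal 1 and fell by 246 in animal 2, so the animals did not share a direction. Read depth was unknown, and deeper sequencing alone lengthens a list. Peaks covered 51.4 Mb before and 52.0 Mb after in animal 1, and 60.4 Mb before and 57.7 Mb after in animal 2. The before list of animal 1 was the shortest of all 16 lists, and both lists of animal 1 covered fewer bases than the other 14.

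The median peak width was lower after treatment in both animals. It was 1092 bp before and 1068 bp after in animal 1, and 1114 bp before and 1066 bp after in animal 2. Peaks wider than 5 kb numbered 425 before and 359 after in animal 1, and 587 before and 521 after in animal 2, which is 66 fewer in each. With 2 pairs an exact two-sided sign-flip test cannot give a p below 0.5, so that test cannot separate these changes from the spread between pairs. Narrower peaks after treatment were not particular to this population: the median width was also lower in 5 of the 6 before-after pairs of the other populations, by 45 to 89 bp. The exception was memory CD8+ cells of animal 1, in which it was 192 bp higher. The share of peaks on chromosome X was 2.41% and 2.45% in animal 1 and 2.67% and 2.66% in animal 2, a difference between animals and not between times.

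**Figure D1:**
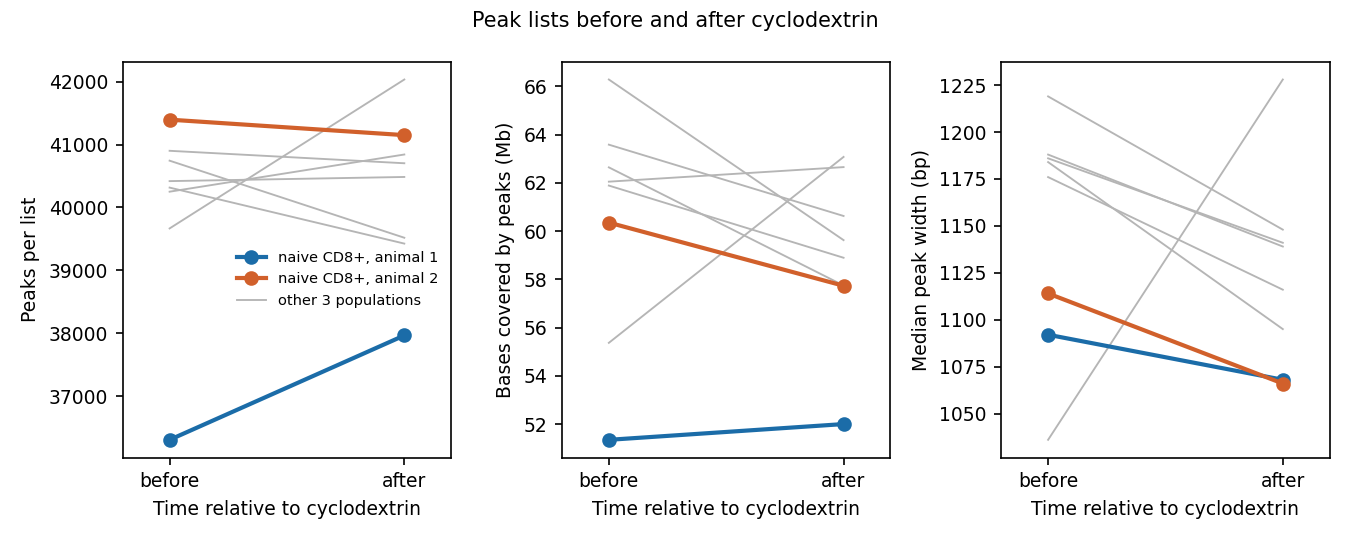
Peaks per list, bases covered (Mb) and median peak width (bp) before and after cyclodextrin, with 1 line per animal for naive CD8+ cells in colour and 6 grey lines for the other populations (axes do not start at 0). Median width is lower after in both naive CD8+ pairs, at 1068 and 1066 bp, while the number of peaks is higher after in animal 1 and slightly lower in animal 2.

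The labelled cell type was checked against reference sets of regions taken from the other populations, since no annotation of the files' build was at hand to place marker genes. Overlapping peaks of the 16 lists (1 bp or more in common) were joined, which gave 55449 regions, and a list with a peak in a region was said to have it open. The naive reference set held the 991 regions open in all 4 naive CD4+ lists and in no memory CD4+ list. Of these, 56.1% and 64.2% were open in animal 1 before and after treatment, and 82.5% and 82.2% in animal 2, against 6.16% to 12.8% in the 4 memory CD8+ lists. The memory reference set held the 1353 regions of the opposite pattern. Of these, 20.1% and 19.7% were open in animal 1 before and after, and 15.9% and 13.7% in animal 2, against 69.3% to 80.3% in memory CD8+ lists. The 4 libraries thus lay on the naive side in both of these sets. For lineage, a CD8+ set held the 1596 regions open in all 4 memory CD8+ lists and no memory CD4+ list. Of these, 31.0% and 32.0% were open in animal 1 before and after, and 27.6% and 24.6% in animal 2. Naive CD4+ lists had 4.07% to 5.26%. A CD4+ set held the 1512 regions of the opposite pattern, open at 34.3%, 42.6%, 58.3% and 59.3% in the same order. Naive CD4+ lists had 78.6% to 80.8%. Each naive CD8+ list had a larger share of the CD4+ set open than of the CD8+ set. Animal 1 had a lower share of the naive set and a higher share of the memory set than animal 2 at both times. With lists of equal length the naive set was open in 66.6%, 71.2%, 80.4% and 79.5% of regions, and the memory set in 25.9%, 21.6%, 14.4% and 12.3%, in the same order of libraries. The part of these differences in the results on gained and lost regions was not tested.

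Most accessible regions were shared by the 4 libraries, and few changed in the same way in both animals. Of 41223 regions open in at least 1 of the 4 lists, 29895 (72.5%) were open in all 4. The numbers gained in both animals, meaning open in both after lists and neither before list, and lost in both were 209 and 167. As a share of the 41223 regions these were 0.507% and 0.405%. Opposite changes were as many: 378 regions were gained in one animal and lost in the other, of which 263 were gained in animal 1. Regions that changed alike in the animals (376) and oppositely (378) stood in a ratio of 0.995. A call of open or closed in 2 pairs allows no test beyond these counts. At a stricter peak threshold the split was 281 gained and 106 lost, and opposite changes numbered 304, a ratio of 1.27.

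Many more regions separated the animals than the times. There were 768 regions open in both lists of animal 1 and in neither of animal 2, and 2975 of the converse pattern. With lists of equal length these were 1224 and 1564, and the opposite changes were split into 204 gained and 197 lost in animal 1. Likeness of 2 lists was taken as the bases covered by both over the bases covered by either (the Jaccard index). It was 0.814 for before and after in animal 1 and 0.832 in animal 2. It was 0.745 between the animals before and 0.778 between them after. Within animal 1, 2916 regions were gained and 1354 lost. Within animal 2, 1795 were gained and 2274 lost, so the balance of gains and losses in each animal had the sign of its change in list length.

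**Figure D2:**
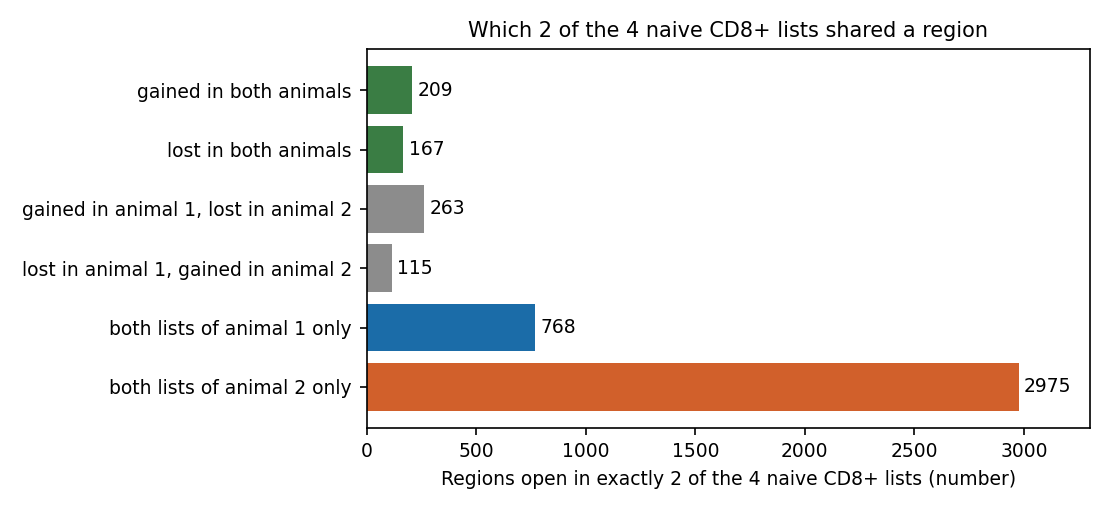
Number of regions open in exactly 2 of the 4 naive CD8+ lists, by which 2. Regions gained (209) or lost (167) in both animals are as few as those changed in opposite directions (378 in all, in 2 bars), and far fewer than those open in both lists of animal 2 only (2975).

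The regions gained or lost in both animals were weak. Strength was taken as the within-list percentile of the area score of a region's highest peak, where 0 is the weakest and 100 the strongest peak of the list. To describe a set, each region's percentile was averaged over the naive CD8+ lists in which it was open. For gained regions these means had a median of 7.61 and none was above 30.5. The median was 43.1 over all regions open in any of the 4 lists. For lost regions the means had a median of 9.14 and a highest value of 32.9. Of the 209 gained regions, 182 (87.1%) had an area score below 400 in every naive CD8+ list in which they were open, where the lowest score of any peak is 200.0. The figure was 131 of 167 (78.4%) for lost regions, 18.9% over all regions open in any list and 2.22% over those open in all 4. Regions that changed in opposite directions were as weak, with medians of 7.99 and 7.79. These regions thus mostly lay close to the lowest score that a peak could have and still be listed. The part of depth in their calls was not tested.

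The calls of the 16 regions named next depended on the peak threshold. At the stricter threshold 3 of the 8 gained and 0 of the 8 lost regions kept their pattern, with lists of equal length 8 and 6, and with at least 50% of a region covered 5 and 4. The gained region with the highest mean percentile was chr1:218030588-218031999 (build rheMac10, as for all positions). Its peaks stood at percentile 27.8 and were 708 bp wide in animal 1 after, and at 33.1 and 620 bp in animal 2 after. It was open in all 12 lists of the other populations at both times, so its peak was missing only from the before lists of naive CD8+ cells. The next was chrX:39844575-39846051, at percentiles 23.3 and 21.6, open in 4 of 6 other lists before and 5 of 6 after. The regions chr20:75647075-75650150 (23.0 and 16.04) and chr8:133345712-133348574 (15.1 and 21.1) were each open in 10 of the 12 other lists.

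The other 4 of the 8 named gained regions were closed in at least 8 of the 12 other lists, which sets them apart from the regions above. At chr16:50987396-50988244 the percentiles were 17.6 and 26.1, with widths of 799 and 827 bp, and only 1 of the 12 other lists had a peak, a memory CD8+ list before treatment. At chr10:92618379-92619061 they were 13.01 and 22.4, with 1 other list open, after treatment. The remaining 2 had a few more lists with a peak, at both times. At chr6:176290791-176291668 they were 22.3 and 19.3, with 3 other lists open. At chr9:14850143-14851339 they were 20.7 and 18.4, with 4 open.

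The lost region with the highest mean percentile was chr2:11016132-11019302. It stood at 46.0 in animal 1 before, where 2 peaks covered 2832 bp, and at 19.8 in animal 2 before, and no peak was left in either after list. It was open in 11 of the 12 other lists. The region chr3:168853144-168854325, at 23.9 and 27.0, was open in 1 other list. Only the first of these was thus widely open elsewhere. At chr2:88833312-88834961 the before percentiles were 17.1 and 29.8, and the number of other lists with a peak was 5 of 6 before and 3 of 6 after. At chr10:31119426-31121414 they were 26.1 and 20.1, with 5 of 6 before and 4 of 6 after.

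The remaining 4 lost regions were uneven between the animals or open elsewhere. At chr9:9287165-9287972 the before percentiles were 31.7 and 13.04, with 3 of 6 other lists open at each time. At chr1:42527108-42537957 they were 40.0 and 4.69, and at chr13:39046708-39048399 they were 18.1 and 25.3, and both regions were open in all 12 other lists. At chr5:37825625-37827888 they were 43.4 in animal 1 and 0.0278 in animal 2, which is next to the lowest peak of the list. Its loss in animal 2 therefore rested on a peak at the edge of being listed.

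Few gained or lost regions lay near another. Of the 376 regions, 358 had no other gained or lost region within 50 kb. The other 18 (4.79%) formed 9 pairs, 7 of which moved in 1 direction. Whether this spacing differs from that of open regions in general was not tested. The 3 pairs of smallest span were chr5:37825625-37829314 (2 lost), chrX:7126768-7134593 (2 gained) and chr3:176325372-176334339 (2 gained). Chromosomes differed in their counts: chromosome 3 had 21 gained and 3 lost of 2365 regions, chromosome 14 had 18 and 7 of 2053, and chromosome 13 had 2 and 10 of 1568. Chromosome 1, with 4176 regions, had 14 gained and 24 lost, and chromosome X had 6 and 1 of 1113. These are counts by chromosome without a test. Gained regions were shorter than lost ones, with median lengths of 747 and 1035 bp.

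Most gained and lost regions had a peak in some list of the other T cell populations. Of the 209 gained regions 19 (9.09%) were open in none of the 12 other lists, and of the 167 lost regions 13 (7.78%), against 4.65% of all regions open in any naive CD8+ list. In all 12 other lists 17 gained (8.13%) and 19 lost regions (11.4%) were open, against 61.3% of all. The median number of other lists with a peak was 8 for gained and 7 for lost regions. Read in the other populations, the share of gained regions that were open was higher after treatment in 6 of 6 before-after pairs. The largest difference was in memory CD4+ cells of animal 1, from 53.6% to 67.0%, and the smallest in memory CD8+ cells of animal 2, from 42.1% to 42.6%. Over all 41223 regions the share was higher after treatment in the 3 pairs of animal 1, by 0.330 to 2.998 percentage points, and lower in the 3 pairs of animal 2, with changes of -0.975 to -0.429. The share of lost regions that were open was lower after treatment in 5 of 6 pairs. The largest difference was in naive CD4+ cells of animal 1, from 59.3% to 47.3%, and the exception was memory CD8+ cells of animal 1, from 56.3% to 59.3%.

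Shifts of that size in other populations were also present for regions on which the naive CD8+ cells of the 2 animals disagreed. Regions gained in animal 1 and lost in animal 2 were open more often after treatment in 3 of 3 other populations of animal 1 (by 7.60 to 11.4 percentage points) and in 1 of 3 of animal 2. The converse set followed no animal: its changes were -10.4, 3.48 and -0.870 points in naive CD4+, memory CD4+ and memory CD8+ cells of animal 1, and -3.48, -0.870 and 3.48 in those of animal 2. Some regions made the same complete change elsewhere. Of the 209 gained regions, 6 (2.87%) were gained in both animals in naive CD4+ cells, 15 (7.18%) in memory CD4+ cells and 2 (0.957%) in memory CD8+ cells. Over all 41223 regions these shares were 0.369%, 0.531% and 0.381%. Of the 167 lost regions, 3 (1.80%), 6 (3.59%) and 3 (1.80%) were lost in both, against 0.451%, 0.192% and 0.298% over all. These differences in share were not tested, and regions over all are stronger than the gained and lost ones. The 3 other pairs of an animal share that animal with each other and with its naive CD8+ cells.

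**Figure D3:**
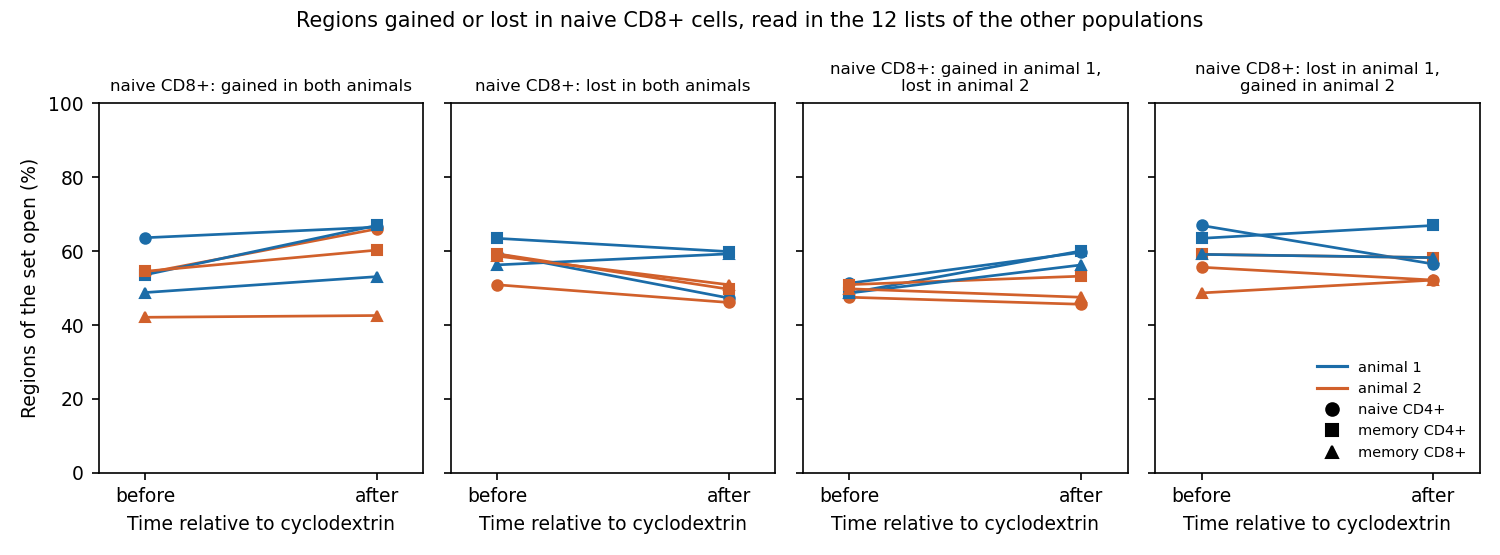
Share (%) of 4 sets of regions, chosen in naive CD8+ cells, that were open before and after cyclodextrin in the other populations, with 1 line per animal and population. The gained set is higher after in 6 of 6 pairs and the lost set lower in 5 of 6, and the set gained in animal 1 and lost in animal 2 is higher in the 3 pairs of animal 1.

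The regions that separated the animals were stronger than those that separated the times. Those open in both lists of animal 1 only had mean percentiles with a median of 16.2 and a highest of 87.6. For those of animal 2 only the median was 15.1 and the highest 99.95. The strongest of all, named after its values were seen, was chrX:112231437-112234868, at percentiles 99.95 before and 99.96 after in animal 2 and without a peak in animal 1. It was open in all 6 other lists of animal 2 and in none of the 6 of animal 1. Of the regions of animal 2 only, 130 (4.37%) lay on chromosome X, against 7 (0.911%) of those of animal 1 only. Regions of animal 1 only were open in 70.7% and 71.1% of cases in the memory CD8+ lists of animal 1 before and after, and in 54.2% and 53.5% in its naive CD4+ lists. Regions of animal 2 only were open in 69.4% and 68.4% of cases in the naive CD4+ lists of animal 2, and in 38.6% and 35.3% in its memory CD8+ lists. The first set was thus shared more with memory CD8+ cells and the second with naive CD4+ cells, as in the reference sets above.

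At the 29895 regions open in all 4 lists, shifts in strength from before to after had almost no correlation between the 2 animals. The after minus before shift had a median of 1.15 percentile points in animal 1 (SD 6.84 across regions) and 0.0335 in animal 2 (SD 5.51). Ranking the shared regions alone sets the mean shift at 0 by construction, so a common shift cannot be read from that scale. Across regions, the shift in animal 1 and the shift in animal 2 had a Pearson r of 0.0106 and a Spearman rho of 0.00237. The sign was the same in 50.1% of regions. The difference between animals was far more stable: animal 2 minus animal 1 before and the same difference after had an r of 0.573, a rho of 0.486 and the same sign in 70.4%. Regions are not independent replicates, and each relation rests on the same 4 libraries.

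Large shifts in both animals were about as often opposite as alike. Upward shifts of at least 10 percentile points in both animals occurred at 215 regions and downward shifts at 178, while 313 regions were up in animal 1 and down in animal 2 and 78 the converse. Differences between animals of that size, in 1 direction at both times, occurred at 2934 regions (higher in animal 2) and 551 (higher in animal 1). These balances depended on the scale: with ranks among the shared regions alone, 96 regions were up in both animals and 188 down in both, against 154 and 101 with opposite shifts. On that scale 1372 regions were higher in animal 2 at both times and 1162 in animal 1. Shifts were largest among the weakest 7474 regions, with SDs of 10.01 and 8.63 points in the 2 animals, and smallest among the strongest 7474, with SDs of 2.90 and 2.10. On chromosome X the median shift was 1.80 points in animal 1 and 1.22 in animal 2, against 1.14 and 0.0162 on autosomes.

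**Figure D4:**
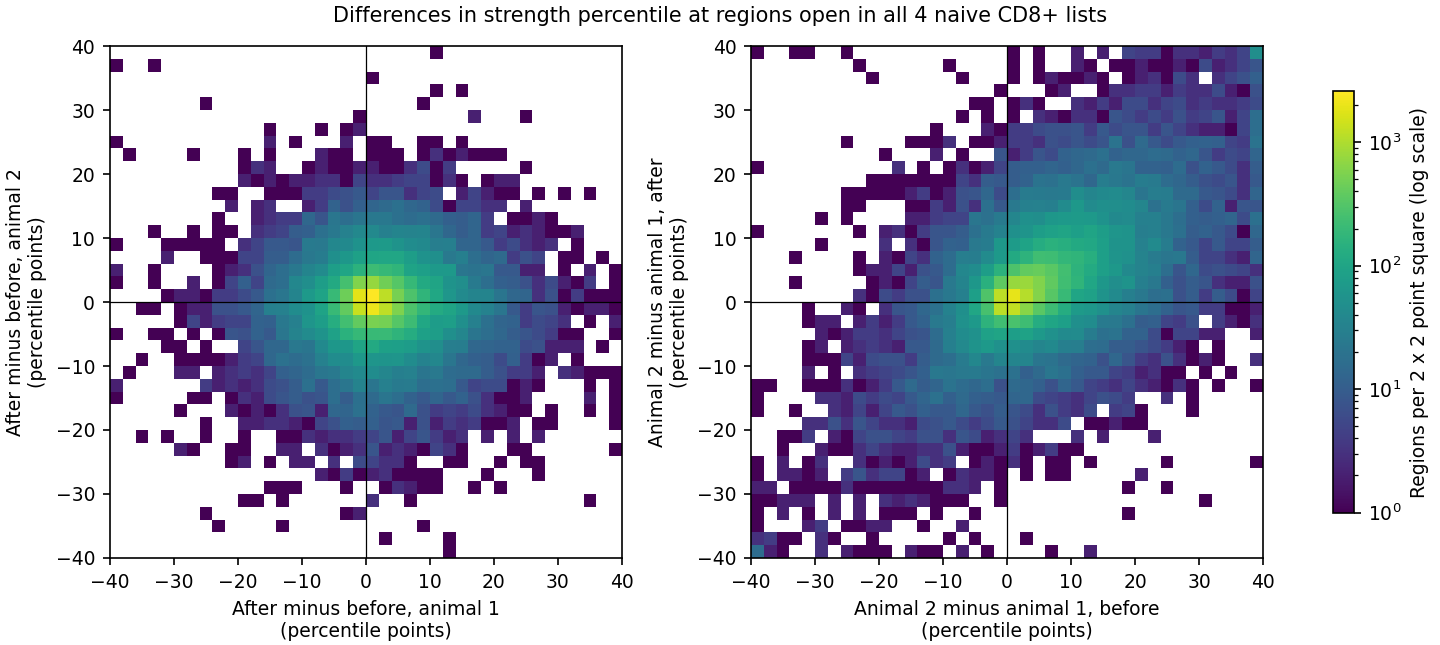
Differences in strength percentile at the 29895 regions open in all 4 naive CD8+ lists, as counts of regions per 2 x 2 point square on a log colour scale, with values beyond 40 points drawn in the outermost squares. After minus before in animal 1 against animal 2 (left) shows no slope (r 0.0106), whereas animal 2 minus animal 1 before against after (right) follows a diagonal (r 0.573).

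No region passed the test for a change in strength. The test was limma's moderated test on normal scores of the percentile, with animal as a block, and it called 0 of 29895 regions (0%) at an adjusted p of 0.05. The smallest adjusted p was 0.986, and 747 higher and 533 lower regions had an unadjusted p under 0.05. That balance turned to 655 higher and 829 lower with ranks within the shared regions, 578 and 698 with lists of equal length and 659 and 808 with summed areas, and was 1116 and 342 at the stricter threshold. Each of these fits also called 0 regions. With 2 pairs the model had 1 residual degree of freedom. When the 12 other libraries were fitted together with these 4, 5 of the 24333 regions open in all 16 lists passed, and they are named below. That fit had 7 residual degrees of freedom, drawn from further libraries of the same 2 animals. Beyond a common animal term it treated libraries of an animal as independent, so its p-values do not measure spread between more animals. The test of the difference from other populations used the same model. Without 1 library that fit called 6 (before) or 8 (after) regions when a library of animal 1 was left out. It called 138 without the before library of animal 2, of which 131 were higher, and 20 without its after library, of which 18 were lower.

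The 6 regions with the largest upward shift in both animals, none of which passed (limma adjusted p 0.986), stood below percentile 30 before treatment. At chr11:110511940-110513307 the percentile was 16.8 before and 42.2 after in animal 1, and 6.46 before and 35.0 after in animal 2. Its width went from 577 to 1255 bp and from 574 to 1314 bp, so the after values lay above the before values in both measures. At chr10:28299254-28300388 the percentile was 25.7 and 51.2 in animal 1 and 9.80 and 30.1 in animal 2, and the region was open in none of the 12 lists of other populations. At chr6:1052953-1055350 it was 29.4 and 50.5, and 13.1 and 35.2, with 1 other list open, after treatment. These last 2 were the only regions of the 6 that most other lists lacked.

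The other 3 were open in all 12 other lists. At chr7:93448561-93449149 the percentile was 1.12 before and 20.7 after in animal 1, and 11.1 and 34.9 in animal 2. At chr14:10665407-10666998 it was 2.67 and 24.4, and 8.51 and 27.5. At chr15:51307551-51308168 it was 4.54 and 27.8, and 8.10 and 26.8, at widths of only 402 to 422 bp. This region passed in the fit of all 16 libraries (fitted change 0.94, SE 0.10, in normal score units, adjusted p 0.0308).

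The largest downward shift in both animals, also not passing (limma adjusted p 0.986), was at chr11:9987401-9989934. The percentile was 41.3 before and 16.3 after in animal 1, and 46.9 before and 14.0 after in animal 2, while the width went from 1557 to 605 bp and from 1554 to 689 bp. A neighbouring region, chr11:9982203-9985195, narrowed from 1289 to 501 bp and from 1653 to 732 bp, and its percentile went from 16.8 to 7.07 and from 40.1 to 15.1. The 2 regions are less than 3 kb apart, and both had lower values after treatment in both animals. The first was open in all 12 other lists and the second in 11.

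The other 5 had lower values after treatment in both animals too. At chr14:53758514-53759361 the percentile was 31.5 and 5.26 in animal 1 and 40.5 and 16.7 in animal 2, and 4 of the 12 other lists had a peak. At chr19:1901008-1904325 it was 61.2 and 32.6, and 48.8 and 25.8, and the width went from 2672 to 1214 bp and from 2220 to 1307 bp. In each of these the after values lay below both before values. At chr4:85695719-85696862 it was 24.9 and 2.86, and 34.5 and 12.1. At 2 further regions more peaks were listed after treatment in at least 1 animal. These were chr2:20009332-20013225 (55.3 and 27.0, then 59.1 and 35.9, with 3 peaks in place of 1 in animal 2) and chr4:156691726-156694394 (41.3 and 18.9, then 46.8 and 12.7, with 2 peaks in place of 1 in both animals). With summed areas, ranked among the shared regions alone, their fitted changes were -0.52 and -0.49 in normal score units. The highest peak gave -0.84 and -1.17 on that ranking, and -0.67 and -0.86 with percentiles of the whole list.

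Peak width at shared regions also changed without a pattern common to the animals. Width was the number of bases of a region covered by a library's peaks. The median log2 change was 0.0023 in animal 1 (SD 0.31 across regions) and -0.024 in animal 2 (SD 0.26), and the changes had an r of -0.0274 between animals. The difference between animals before and after had an r of 0.345. At least a 2-fold change in both animals occurred at 8 regions that were wider and 8 that were narrower, against 20 that were wider in one animal and narrower in the other. Limma with animal as a block called 0 of 29895 regions (0%). The smallest adjusted p was 0.950, and 556 wider and 740 narrower regions had an unadjusted p under 0.05. With widths centred on each library's median the balance turned to 708 wider and 576 narrower, again with 0 called, and the median log2 changes were 0.0046 and 0.031.

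The largest widening in both animals was at chr14:18289528-18292529, from 387 to 1565 bp in animal 1 and from 903 to 2426 bp in animal 2, and the region was open in 1 of 12 other lists. At chr4:33157443-33158659 the width went from 294 to 814 bp and from 417 to 1109 bp, and at chr4:74438481-74440174 from 432 to 1123 bp and from 632 to 1441 bp. At chr2:99269265-99271684 it went from 325 to 976 bp and from 940 to 2207 bp. The region on chromosome 11 with the largest upward shift in strength was the fifth. The sixth, chr4:67101524-67103108, was 447 bp wide in both before lists and 944 and 949 bp in the after lists. It alone of these passed in the fit of all 16 libraries (log2 change 1.08, SE 0.11, limma adjusted p 0.0368).

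The largest narrowing was at chr4:137866251-137872547, from 1886 to 638 bp in animal 1 and from 2499 to 504 bp in animal 2. At chr2:91259438-91264977 the width went from 2292 to 804 bp and from 3164 to 1073 bp, with 2 peaks before and 1 after in both animals. At chr20:76498750-76501835 (1968 to 856 bp and 1876 to 858 bp) and chr7:73357851-73360209 (1049 to 513 bp and 1198 to 405 bp) 2 peaks before were also 1 after in both animals. The remaining 2 were the neighbouring regions of chromosome 11 described above. None of these regions passed (limma adjusted p 0.950).

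Signal per base was higher after treatment at most regions of each animal, though not always at the same regions. It was the area score of a peak divided by its width, taken at the peak of a region where this was largest. It was higher after treatment at 69.7% of regions in animal 1 and 68.9% in animal 2, with median log2 changes of 0.11 and 0.10. At 48.9% of regions it was higher in both animals, and at 10.3% lower in both. Between animals it was higher in animal 2 at 76.3% of regions before and 76.3% after, with medians of 0.18 and 0.17. The correlation of the before-after changes between animals was 0.0208, so this was a shift of whole lists and not of the same regions. Area scores belong to their own list and are not corrected for depth, which is unknown.

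The fit of all 16 libraries called 5 regions for strength and 3 for width in the naive CD8+ contrast, named after their values were seen because they passed. Of the 5, chr4:132826870-132828175 rose in percentile from 10.4 to 34.9 in animal 1 and from 10.7 to 25.1 in animal 2 (fitted change 0.72, SE 0.07, limma adjusted p 0.0270). At chr15:12588299-12591781 it rose from 66.5 to 82.8 and from 65.9 to 83.6, with 2 peaks before and 1 after in both animals (adjusted p 0.0308). At chr6:66818638-66823086 it fell from 95.02 to 82.9 and from 96.8 to 85.2, with 1 peak before and 2 after in both animals (adjusted p 0.00502). The other 2 were the region on chromosome 15 named above and the region on chromosome 16 described next. Besides the region on chromosome 4, the 3 for width were chr6:139075286-139077667 (866 to 1561 bp and 714 to 1567 bp) and chr10:28628985-28632624 (1468 to 2939 bp and 1153 to 2878 bp), with limma adjusted p of 0.0304 and 0.0387. At chr6:139075286-139077667 there was 1 peak before and 2 after in both animals, and the percentile was 50.8 and 49.5, and 50.5 and 54.2. When the areas of all peaks of a region were summed before ranking, 0 regions passed for strength, with 475 higher and 545 lower at an unadjusted p under 0.05.

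A test of the difference asked whether any shift in strength was particular to naive CD8+ cells. At the 24333 regions open in all 16 lists, limma compared the before-after change in naive CD8+ cells with its mean in the other 3 populations, and called 1 region (0.00411%). It was chr16:52807048-52816441, 9394 bp long and among the strongest of every list. Its percentile was 99.7 before and 97.3 after in animal 1, and 99.6 before and 97.3 after in animal 2, while all 12 lists of the other populations lay between 99.6 and 99.8. The fitted difference was -0.83 (SE 0.07, normal score units, adjusted p 0.0289). Its covered width was 7843 and 8491 bp in animal 1 and 8691 and 8516 bp in animal 2, so it was longer after in animal 1 and slightly shorter in animal 2. Its peaks numbered 2 and 2 in animal 1 and 2 and 3 in animal 2, against 1 in each of the 12 other lists. The test thus set the highest of several peaks in naive CD8+ lists beside a single peak elsewhere. With summed areas, ranked among the 24333 regions alone, the percentiles were 99.5, 99.2, 99.3 and 99.3, and the call was lost (adjusted p 1.00). With ranks among the 24333 regions it passed (adjusted p 0.0463) together with 1 more, chr6:66818638-66823086 (fitted difference -0.62, adjusted p 0.0463). Against naive CD4+ libraries alone limma called 0 regions (398 higher and 198 lower at an unadjusted p under 0.05), and with 1 naive CD8+ library left out 2 to 56 regions did, the most (56, of which 53 higher) without the before library of animal 2.

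Other regions with the smallest p in that test did not pass with percentiles of the whole list, and several were also places where peaks were divided or joined. The region chr6:66818638-66823086 had 1 peak before and 2 after in both naive CD8+ and naive CD4+ cells of both animals, and 1 peak in all 8 memory lists (adjusted p 0.151, and 1.00 with summed areas). In naive CD4+ cells its percentile went from 93.2 to 81.2 and from 94.3 to 82.9, close to the change in naive CD8+ cells, and with summed areas the naive CD8+ values were 91.3 and 91.9, and 93.4 and 91.2. At chr1:100059114-100065787 the percentile went from 98.7 to 96.2 and from 99.1 to 96.6, with 1 peak before and 2 after in both animals (adjusted p 0.535). At chr7:43732707-43735437 it went from 56.9 to 42.4 and from 54.2 to 38.5, against 59.4 to 73.7 in all other lists (adjusted p 0.586).

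In the direction of a higher change in naive CD8+ cells, chr15:12588299-12591781 (adjusted p 0.239) was joined from 2 peaks into 1. At chr4:132826870-132828175 (adjusted p 0.358) and chr15:51307551-51308168 (adjusted p 0.394) the before values of naive CD8+ cells lay below all 12 other lists and the after values within their range or just under it. At the first, the before values were 10.4 and 10.7 and the after values 34.9 and 25.1, while the other lists spanned 27.4 to 43.2. At chr14:21178517-21185385 (adjusted p 0.394) the naive CD8+ values stayed at 86.9 to 90.6. The difference came from memory lists, in which the percentile of the highest peak went from between 98.6 and 99.2 to between 89.8 and 94.4. Each memory list had 1 peak there before and 2 after, while naive lists had 2 at both times. With summed areas, ranked among the tested regions alone, memory values were 97.3 to 98.3 before and 97.0 to 98.4 after. The fitted difference was then 0.014, against 0.63 with the highest peak. Over all 29895 shared regions, 25513 had exactly 1 peak in each list. More peaks after treatment in both animals were counted at 209 regions, and fewer in both at 151, against 298 that moved oppositely.

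Before-after shifts in naive CD8+ cells resembled those of CD4+ cells of the same animal more than those of CD4+ cells of the other animal. At the 24333 regions, the shift of animal 1 had an r of 0.352 with that of its naive CD4+ cells, 0.337 with memory CD4+ cells and 0.0653 with memory CD8+ cells. The shift of animal 2 had an r of 0.215, 0.114 and 0.0883 with the same populations. With populations of the other animal the 6 values ran from 0.0221 to 0.129, with a median of 0.0391. Memory CD8+ cells of animal 1 were thus no closer to its naive CD8+ cells than were naive CD4+ (0.0720) and memory CD4+ cells (0.129) of animal 2. The naive CD8+ cells of the 2 animals had an r of 0.0179 with each other. These correlations share no library within a pair, but the regions are not independent and the lists differ in length. When only the 24333 regions were ranked, the values ran from 0.0216 to 0.387 within an animal and from -0.00771 to 0.159 between animals.

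**Figure D5:**
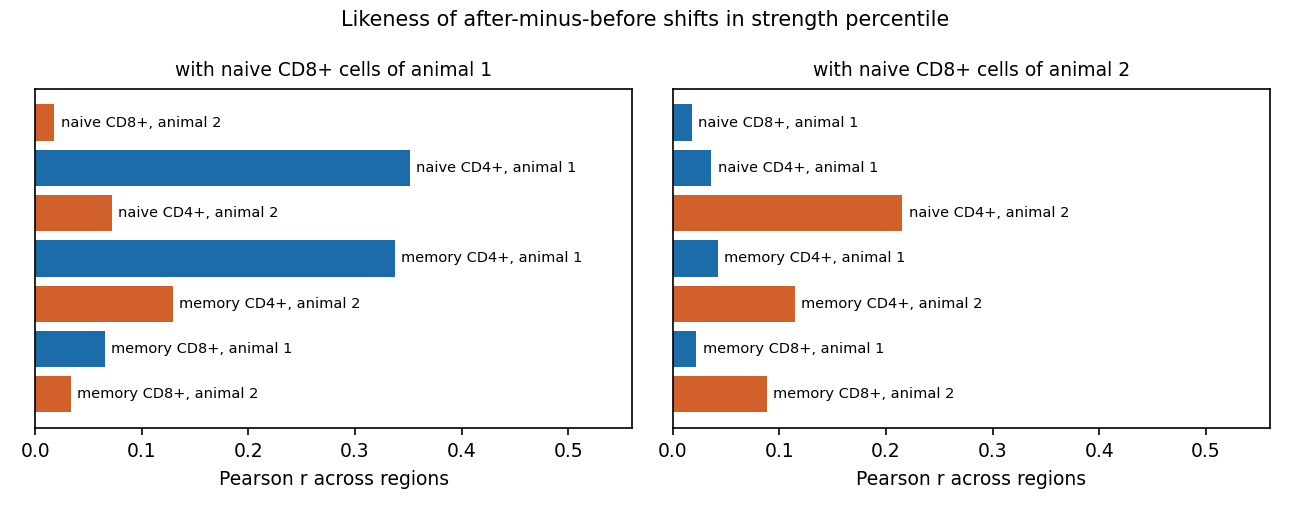
Pearson r, across the 24333 regions open in all 16 lists, of the after minus before shift in strength percentile in naive CD8+ cells of animal 1 (left) or animal 2 (right) with that in each other population and animal (blue animal 1, orange animal 2). The longest bars belong to CD4+ cells of the same animal (0.352 and 0.337 for animal 1, 0.215 for animal 2), and the bar of naive CD8+ cells of the other animal is the shortest in both panels (0.0179).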

How the data were processed

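The 16 peak lists are the authors' deposited calls, 1 per library, with replicates not pooled. The submitters' processing notes name cutadapt 1.18, Bowtie2 2.3.4.1, Genrich 0.6 and the build rheMac10; the sources used here give no settings, duplicate removal or shift of reads. Per the labels' protocols, libraries were amplified for 11 to 15 cycles. Each deposited list gives the authors' area score of a peak (lowest 200.0) and the −log10 p at its summit (lowest 2.42), without a q value. Depth is unknown.

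Regions, percentiles (100 × (rank − 0.5) / peaks), widths and counts were computed with Python 3.11.15, numpy 2.4.6 and pandas 2.3.3. Models used limma 3.58.1 in R 4.3.3 with Benjamini-Hochberg adjustment over all regions tested (threshold 0.05). The model of the 4 naive CD8+ libraries was also run on simulated data, and the model of all 16 libraries was not. Animals were paired by the titles, and the file names number animal 2 differently per population but alike before and after within naive CD8+ cells. Each group has 2 replicates, 1 from each animal.

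Regions were named by rule: per direction the 8 gained or lost regions of highest mean percentile, the 6 with the largest smaller-of-both-animals shift in strength or width, the 4 of smallest p for the difference, and 3 groups (all groups had 2 members, so ties went to the smallest span). Members, rules and tests were chosen with earlier results of these data known. Planned gene lists and marker genes were not analysed, because no annotation of rheMac10 was at hand.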

Additional observations from a re-analysis of the deposited data

Results flagged for a closer look

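The before-after change in strength at chr16:52807048-52816441 differed between naive CD8+ cells and the other 3 populations (limma adjusted p 0.0289, lower in 2 of 2 naive CD8+ pairs). It passed because the highest peak of the region fell from percentile 99.7 to 97.3 and from 99.6 to 97.3 in naive CD8+ cells alone. The adjusted p was 0.0463 with ranks among the regions open in all 16 lists and 1.00 with the areas of all its peaks summed.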

How the results depend on the processing

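The animal served as the replicate block, and without that block limma again called 0 regions for strength (295 higher and 213 lower at an unadjusted p under 0.05) and 0 for width (338 and 564). In the fit of all 16 libraries 5 and 3 regions passed. Leaving out 1 naive CD8+ library in that fit, with the lone sample assumed to vary like the other groups, gave 6 to 138 regions for strength, 0 to 26 for width and 2 to 56 for the difference from other populations. The highest of each came without the before library of animal 2 (131 of 138 higher). For the difference, naive CD4+ libraries alone as the comparison gave 0 regions in limma (398 higher and 198 lower at an unadjusted p under 0.05), ranks within the shared regions 2 and summed areas 0 (300 and 329). Regions gained in both animals numbered 492 with windows of 500 bp around summits. Regions lost in both numbered 308 with at least 50% of a region covered, 106 at the stricter threshold (−log10 p at the summit 3.42 or more) and 362 with the windows. In a single animal 1795 to 2916 were gained and 1354 to 2274 lost. The correlation of shifts between animals was -0.00261 with lists of equal length, -0.00294 with ranks within the shared regions and -0.00322 with summed areas. The ratio of like to opposite changes ran from 0.962 to 1.27. With lists of equal length, 51 of the 209 gained and 55 of the 167 lost regions kept their pattern, at the stricter threshold 32 and 12, and with at least 50% covered 157 and 98. Summed areas were ranked among the shared regions of each fit alone, and were added after seeing the data. No correlation can be given with 1 animal, and windows were not run for strength and width.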
